A study of Glycine max with 12 samples.

Results

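The 6 arrays of aluminium-treated soybean (Glycine max) roots follow 2 varieties through 3 times, 6, 12 and 24 h. They were chosen by their labels as every array with AlCl3, which makes 6 of the 12 arrays of the series, and the other 6 are the controls (CK) of the same varieties and times. The time course is described as 2 steps, 6 to 12 h and 12 to 24 h, of 6 h and 12 h in length. The second step is longer than the first, so a larger count in it is also a count over more hours.

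The groups with Al were GF after 6, 12 and 24 h and KF after 6, 12 and 24 h in 25 µM AlCl3, and the groups without Al were GF and KF after the same times in 0 µM AlCl3. GF is the Al-sensitive variety Guangfengmaliaodu, and KF is the Al-tolerant variety, which the study writes by these letters. All 12 groups shared 0.5 mM CaCl2 at pH 4.3, so the control roots stood in acid as well. The seedlings were 3 days old and had grown in sand under a day and night cycle. Roots were harvested, total RNA of 0.1 µg was labelled for each Affymetrix array, and the labels give no number of plants. Every condition has a single array and is not replicated, and the series was made to look for candidate genes of Al tolerance.

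Aluminium dissolves as a toxic ion in acid soil, and its first visible effect is that root elongation stops. It binds to the pectin of the cell wall and to the plasma membrane of the root tip, where it disturbs calcium signalling and the production of reactive oxygen. Plants resist it mainly by releasing organic acids such as citrate and malate, which bind the metal outside the root, and by moving it into vacuoles or away from the tip.

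Values are log2 intensities of probe sets, groups of probes that report 1 transcript, and 1 unit is a 2-fold difference. The model, fitted with limma, took the 12 h and 24 h levels against 6 h within each variety and treatment. Its 2 repeats of every step are the 2 varieties, so each p-value sets a step against the disagreement of steps between GF and KF, pooled over Al and control arrays, and no difference between the varieties can be tested. Steps are given as the mean over both varieties ± the standard error of the fit (n = 2 pairs of arrays, GF and KF). A probe set is called when its p, after Benjamini-Hochberg adjustment across all 49646 probe sets tested, is below 0.05, and "rose" and "fell" are used only for such calls. In bulk root RNA, fewer cells of a type and less RNA per cell cannot be told apart.

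The 12 arrays had medians from 1.67 to 1.70. The 95th percentile of the 23 background probe sets, which match no soybean sequence, lay between 4.92 and 5.0 in the 24 h Al arrays, between 4.91 and 5.32 in the other Al arrays and between 4.87 and 6.18 in the controls, and a level below it is near background. The highest value belonged to the GF 24 h control array, in which 2479 main probe sets stood above it, against 4592 to 8185 in the other 11 arrays. The 24 h Al arrays also stood apart in probe sets that are not soybean genes of the nucleus. Their chloroplast medians were 6.66 and 6.93, against 7.57 to 7.85 in the earlier Al arrays and 7.59 to 7.98 in the controls, and their positive control medians were 3.23 and 3.24, against 3.91 to 4.44 and 4.20 to 4.97. Intron probe sets moved the same way, with medians of 1.27 and 1.30 against 1.45 to 1.67 and 1.37 to 1.87. The part of these shifts in the results at 24 h was not tested. As a check of tissue, none of the 28 seed storage probe sets and 2 of the 33 photosynthesis probe sets exceeded background in any Al array, while all 4 root hair probe sets did. Of the 30 root cap and meristem probe sets 4 did so, and of the 29 nodule probe sets 8 did. Whether the latter mark nodule tissue in these roots was not tested.

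Most of the change in Al-treated roots fell between 12 and 24 h. In the first step 39 probe sets were called, 30 higher (0.0604%) and 9 lower (0.0181%) at 12 h, 0.0786% of those tested in all. In the second step 6998 were called, 3213 higher (6.47%) and 3785 lower (7.62%) at 24 h, and of these 2402 and 2728 differed at least 2-fold. Over the whole course, 24 h minus 6 h, 4571 were higher (9.21%) and 7170 lower (14.4%). In the control arrays neither step gave a call (0.0% by limma), with 2705 probe sets at an unadjusted p below 0.05 in the first and 3587 in the second, where the Al arrays had 5683 and 14012. The adjustment was made within each comparison, so its cut is stricter where fewer probe sets move. A step of the same size and error can thus be called with Al and not in the controls, and no call there does not mean no change.

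Counted in single pairs of arrays, without a test, 2126 probe sets (4.28%) differed at least 2-fold between 12 and 6 h in GF with Al and 1345 (2.71%) in KF with Al, against 630 (1.27%) in GF and 603 (1.21%) in KF controls. Between 24 and 12 h the counts were 4617 (9.3%) in GF and 8870 (17.9%) in KF with Al, against 1523 (3.07%) in GF and 292 (0.588%) in KF controls. So with Al the second step was the larger one in both varieties, and it was larger in KF. In the controls it was the larger one in GF only.

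**Figure D1:**
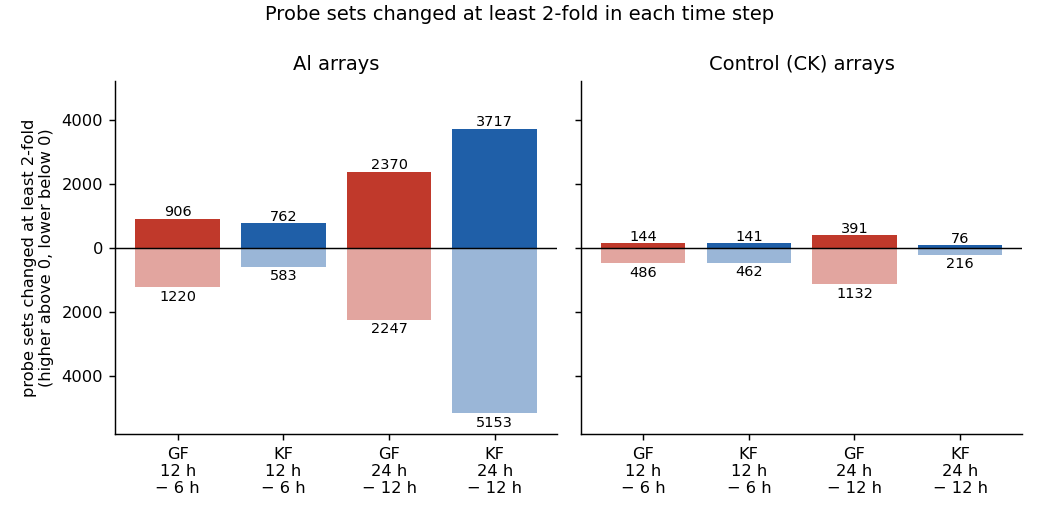
Number of main probe sets that differed at least 2-fold between 2 times of 1 variety, drawn above 0 when higher and below 0 when lower at the later time, in Al arrays on the left and control arrays on the right, GF in red and KF in blue. The tallest pair of bars is KF with Al from 12 to 24 h, 8870 probe sets in all, and the shortest is KF without Al over the same step, 292 in all.

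The varieties were compared by the probe sets they shared. In the second step 3231 probe sets (6.51%) passed 2-fold in the same direction in GF and KF with Al, 1707 higher (3.44%) and 1524 lower (3.07%), which is 70.0% of the GF count and 36.4% of the KF count, and 46 went in opposite directions. In the first step 397 (0.8%) did so, 255 higher (0.514%) and 142 lower (0.286%), 18.7% of the GF count and 29.5% of the KF count, with 24 in opposite directions. The controls had 75 such probe sets in the first step (0.151%) and 49 in the second (0.0987%). Among the called rises of the second step the median change was 1.16 in GF and 1.60 in KF, against control medians of 0.03 and −0.02 for the same probe sets. For the called falls it was −0.97 in GF and −1.47 in KF, against −0.14 and −0.16. Both sets were chosen by their step with Al and not by the control step, so large medians with Al follow from the choice. These medians are given as a description. The step was larger in KF than in GF for 70.1% of the rises and 77.4% of the falls, and for 59.9% of all probe sets tested.

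Movers were then sorted by the time of their larger change. From 6 to 24 h, 4747 probe sets (9.56%) changed at least 2-fold in the same direction in both varieties with Al. Of these, 3299 (6.65% of those tested) made the larger part of the change after 12 h in both varieties, 1631 higher and 1668 lower, and are called late. A further 268 (0.54%) made it before 12 h in both, 80 higher and 188 lower, and are called early. The remaining 1180 (2.38%), called split, differed in timing between GF and KF, 433 higher and 747 lower. In the controls 123 probe sets (0.248%) could be sorted, with 44 early, 27 late and 52 split. These sorted sets carry no test, and the steps share the 12 h array, so a high or low value there moves both.

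The first step is described through named genes, beginning with the rises. ZAT11-like LOC100802760 (GLYMA11G15140, chromosome 11, 10834593 to 10834997), a zinc finger factor, was the only call with a described gene that stood above background in both 12 h arrays. Its levels with Al at 6, 12 and 24 h were 4.79, 6.67 and 8.81 in GF and 5.48, 7.01 and 9.74 in KF, against 1.47 to 2.15 in the controls. Each Al array lay above the one before it, and the gene rose by 1.71 ± 0.22 in the first step (limma, adjusted p = 0.0451) and by 2.43 ± 0.22 in the second (adjusted p = 0.000277).

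Other called rises of the first step started near background, so the sizes of their changes depend on that background, and they are named after their values were seen. NAC94-like LOC100816770 (GLYMA11G10230, chromosome 11, 7351787 to 7354364), a NAC transcription factor, had levels of 1.05, 4.23 and 5.58 in GF and 2.13, 4.63 and 5.51 in KF, against 0.63 to 0.82 in the controls. Most of its change lay before 12 h in both varieties, with a rise of 2.84 ± 0.25 (limma, adjusted p = 0.0128), and it leads the early rises. Cytochrome P450 82A3-like LOC100779366 (GLYMA19G01780, chromosome 19, 1359906 to 1362263), a monooxygenase, was higher in each later Al array, at 1.29, 3.88 and 6.92 in GF and 2.10, 4.44 and 7.09 in KF with Al and 0.68 to 1.31 in the controls. It rose by 2.46 ± 0.21 in the first step (adjusted p = 0.0114) and by 2.84 ± 0.21 in the second (adjusted p = 7.76e-05).

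Signalling genes were among these first rises. WRKY55-like LOC100792150 rose by 2.01 ± 0.25 (limma, adjusted p = 0.0385), and WRKY51, another member of that family of defence-related transcription factors, by 1.46 ± 0.18 (adjusted p = 0.0385). WRKY55-like went on to 7.86 in GF and 7.85 in KF at 24 h, whereas WRKY51 stood lower at 24 h than at 12 h in both, at 2.35, 3.87 and 3.08 in GF and 3.47, 4.86 and 4.18 in KF. The calcium-binding CML30-like LOC100784685 rose by 1.79 ± 0.24 (adjusted p = 0.0495). IDA-LIKE 1-like LOC100784226, related to a peptide that signals organ shedding in Arabidopsis, rose by 2.12 ± 0.26 (adjusted p = 0.0382), and the kinase HT1-like LOC100778530 by 1.95 ± 0.22 (adjusted p = 0.0283). HT1-like stayed at the level reached in GF and was lower again in KF, at 1.34, 3.06 and 3.06 in GF and 1.53, 3.71 and 2.79 in KF.

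A few genes were higher at 12 h than at 6 and 24 h. An unannotated probe set on chromosome 10, 36794572 to 36797420, was the most significant call. Its levels were 0.82, 3.96 and 1.07 in GF and 0.84, 4.46 and 1.41 in KF with Al, against 0.87 to 1.21 in the controls. It stayed below the background percentile in every array. It rose by 3.38 ± 0.15 in the first step (limma, adjusted p = 0.000183) and fell by 2.97 ± 0.15 in the second (adjusted p = 1.3e-05), and its first step exceeded the control step by 3.45 ± 0.21 (adjusted p = 0.0032). The zinc finger Ran-binding gene LOC100792208 had levels of 2.46, 4.64 and 1.45 in GF and 3.44, 6.17 and 1.73 in KF, rose by 2.45 ± 0.28 (limma, adjusted p = 0.0283) and fell in the second step to below its 6 h level. The uncharacterized LOC100500394 rose instead through both steps, at 1.33, 4.55 and 6.40 in GF and 2.06, 5.0 and 6.86 in KF. Its 12 h levels lay below the background percentile of those arrays, 5.32 in GF and 5.14 in KF. Its first step of 3.08 ± 0.18 (adjusted p = 0.00119) exceeded the control step by 3.12 ± 0.26 (adjusted p = 0.0208). It and the unannotated probe set were the only 2 called for the difference between the Al and control steps from 6 to 12 h, 0.00403% of those tested, with 2784 at an unadjusted p below 0.05. LOC100500394 lost that call without any 1 of 10 arrays and without the variety block. The unannotated probe set lost it as well without the 6 h or the 12 h control array of either variety.

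The 9 falls of the first step held 2 class III peroxidases, enzymes that use hydrogen peroxide to cross-link or loosen the wall. Peroxidase 4-like LOC100813250 had levels of 4.07, 1.55 and 1.39 in GF and 3.23, 1.81 and 0.97 in KF and fell by 1.97 ± 0.23 (limma, adjusted p = 0.0304), and peroxidase 15-like LOC100810355 had levels of 3.69, 1.98 and 1.47 in GF and 3.63, 2.32 and 2.06 in KF and fell by 1.51 ± 0.20 (adjusted p = 0.0493). An ACC synthase, LOC100799562, of the step that limits ethylene synthesis, fell by 2.54 ± 0.30 (adjusted p = 0.0332), on a probe set that can bind several genes. The ankyrin gene ANK6 fell by 1.35 ± 0.18 (adjusted p = 0.0495) and the GDSL lipase LOC100785435 fell by 1.15 ± 0.14 (adjusted p = 0.0385). All 5 were at or under 5.26 at 6 h with Al, and none of the 5 was called in the second step. The controls lay at 0.87 to 1.07 for LOC100813250, 1.39 to 1.81 for LOC100810355 and 1.04 to 1.62 for LOC100799562. For ANK6 they lay at 2.03 to 2.71 and for LOC100785435 at 1.23 to 2.02. In each of the 5, both 6 h Al arrays stood above every control array, so these falls started from a raised level.

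Several genes moved far in both varieties without passing the test in the first step. NAC6 was at 2.26, 6.22 and 7.58 in GF and 5.0, 7.38 and 7.92 in KF with Al and 1.5 to 2.05 in the controls, a step of 3.17 ± 0.48 (limma, adjusted p = 0.071). Flavanone 3-dioxygenase-like LOC100805464, of flavonoid synthesis, was at 6.15, 4.51 and 3.29 in GF and 6.14, 2.19 and 1.97 in KF, a step of −2.80 ± 0.43 (adjusted p = 0.0716). The early falls also held 2 genes of DNA replication, MCM4-like LOC100782586 at 6.17, 4.64 and 4.11 in GF and 6.20, 4.94 and 4.05 in KF and the sliding clamp PCNA-like LOC100817651 at 7.01, 5.98 and 5.12 in GF and 7.31, 5.70 and 4.31 in KF. Their first steps were −1.40 (adjusted p = 0.128) and −1.32 (adjusted p = 0.233), and neither was called. Alcohol dehydrogenase 1-like LOC100800668, an enzyme of fermentation, had similar steps in both treatments, neither of them called. It differed by 2.23 ± 0.46 with Al (adjusted p = 0.159) and by 1.84 ± 0.46 in the controls (adjusted p = 0.826), with levels of 4.12, 5.68 and 4.07 in GF and 3.37, 6.26 and 5.50 in KF with Al and of 4.95, 6.65 and 4.32 in GF and 3.56, 5.54 and 4.02 in KF controls.

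The first step depended on single arrays, since the number of its calls was 341 without the GF 24 h Al array, 349 without the KF 24 h Al array, 18 without the GF 6 h Al array, 4 without the KF 12 h Al array and 2 without any 1 of the 6 control arrays. When the 6 Al arrays were fitted alone it was 0.

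The largest rises of the second step were of genes near background up to 12 h. F-box At4g22030-like LOC100799496 (GLYMA09G00720, chromosome 9, 389910 to 391184), of a family whose members mark proteins for breakdown, had levels of 1.24, 1.49 and 8.12 in GF and 1.92, 1.91 and 8.41 in KF with Al at 6, 12 and 24 h. The 6 controls lay at 1.64 to 2.17, so both 24 h Al arrays stood apart from every other array, and the gene rose by 6.56 ± 0.23 (limma, adjusted p = 2.94e-06). Elicitor-responsive protein 1-like LOC100802187 (GLYMA02G41540, chromosome 2, 46630281 to 46633171) followed the same course, at 0.99, 1.07 and 7.32 in GF and 1.19, 0.99 and 7.53 in KF with Al and 1.01 to 1.25 in the controls, and rose by 6.39 ± 0.17 (adjusted p = 1.99e-06). Both steps were larger than those of the controls, by 6.69 ± 0.32 (adjusted p = 6.14e-05) for the F-box gene and by 6.33 ± 0.24 (adjusted p = 2.49e-05) for the elicitor-responsive gene.

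Relatives of the F-box gene moved with it. LOC100796982 on chromosome 15 and LOC100800558 on chromosome 9 have the same annotation and rose by 6.01 ± 0.18 (limma, adjusted p = 2.31e-06) and 5.54 ± 0.29 (adjusted p = 1.43e-05), and a further copy, LOC100808550, rose by 4.92 ± 0.34 (adjusted p = 6.33e-05). A second probe set of LOC100800558 stood at 0.46 and was not called, and near-identical copies of the gene may share signal.

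The largest rises also included enzymes. Lignin-forming anionic peroxidase-like LOC100786161 (GLYMA20G31190, chromosome 20, 39845520 to 39847220) was at 0.87, 0.98 and 7.37 in GF and 0.97, 1.96 and 7.17 in KF with Al and 0.70 to 0.90 in the controls, and rose by 5.80 ± 0.25 (limma, adjusted p = 7.21e-06). Glutamate decarboxylase 1-like LOC100812201, which makes the stress metabolite GABA, was at 2.08, 2.55 and 8.34 in GF and 2.23, 2.52 and 7.86 in KF with Al, against 0.87 to 1.82 in the controls, and rose by 5.56 ± 0.26 (adjusted p = 9.03e-06). CYP82A3, another monooxygenase, rose by 5.10 ± 0.22 (adjusted p = 6.7e-06) and expansin-like B1-like LOC100791557, related to wall-loosening proteins, by 4.93 ± 0.29 (adjusted p = 2.48e-05). The fatty acid desaturase FAD2-2D, which makes linoleic acid, had levels of 1.21, 2.25 and 6.51 in GF and 1.39, 2.34 and 7.18 in KF, against 1.05 to 1.28 in the controls, and rose by 4.55 ± 0.20 (adjusted p = 6.7e-06). It was higher at 12 h than at 6 h in both varieties, but at levels near background, and its first step of 0.99 was not called (adjusted p = 0.147).

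**Figure D2:**
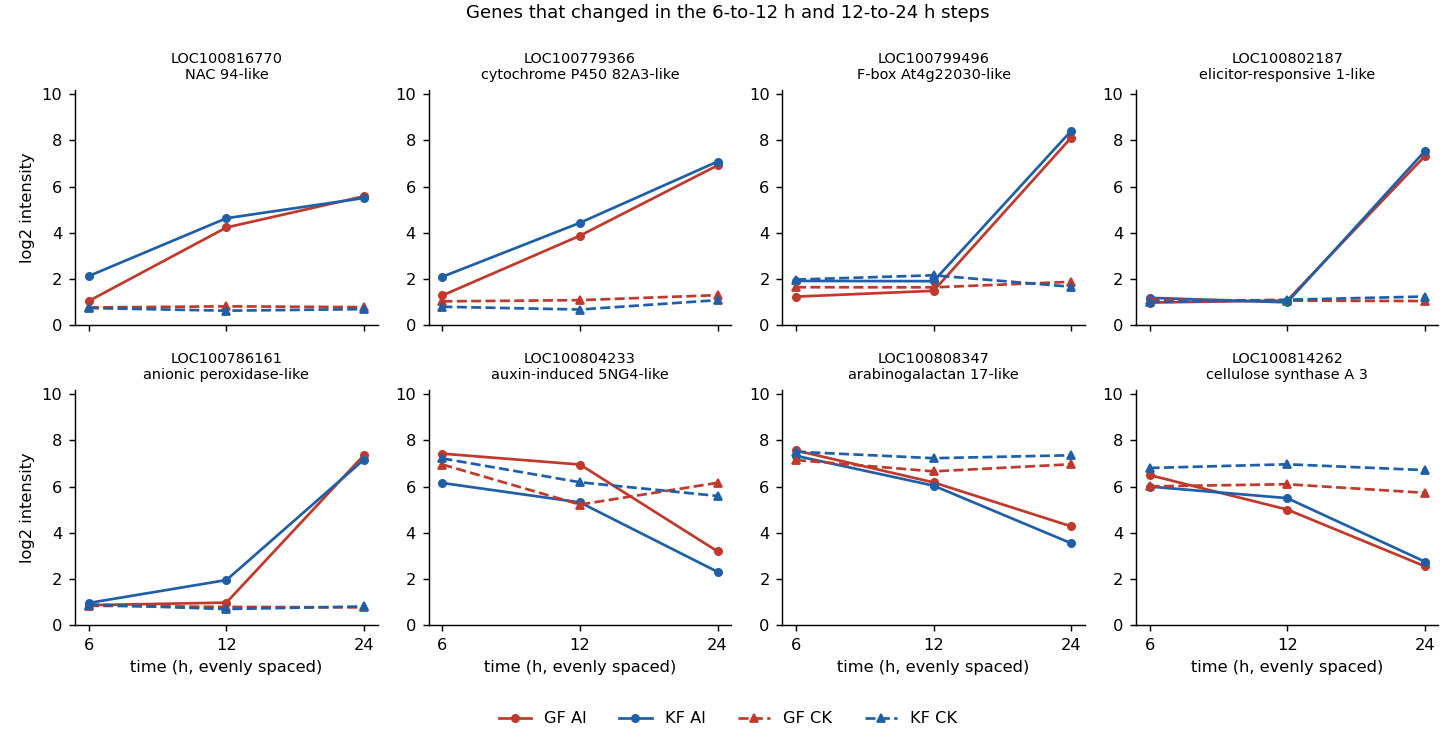
Log2 intensity at 6, 12 and 24 h, evenly spaced, of 8 named genes in the Al arrays (solid lines, circles) and control arrays (dashed lines, triangles) of GF (red) and KF (blue), 1 array per point and no error bars. LOC100816770 and LOC100779366 are well above the controls from 12 h, LOC100799496, LOC100802187 and LOC100786161 are so at 24 h, and the other 3 genes end at or below 4.28 at 24 h with Al.

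Many of the rising genes were near background before 24 h. Of the 3213 called rises, 570 (17.7%) stayed below the background percentile in all 4 Al arrays of 6 and 12 h and stood above it in both 24 h Al arrays, against 1.4% of all probe sets tested. The rises above that percentile numbered 402 at 12 h and 1281 at 24 h in GF, and 542 and 1663 in KF. The called falls above it numbered 1474 at 12 h and 979 at 24 h in GF, and 1420 and 484 in KF. These counts use the same contrast as the calls and are given as a description. The Al against control difference at 6 h uses other arrays than that contrast. It is not independent of the calls, since the 6 h arrays enter the spread behind them, and it is given as a description too. Of the called rises, 309 (9.62%) were already at least 2-fold higher with Al than in the control at 6 h in both varieties, against 887 (1.79%) of all probe sets tested. Of the called falls, 94 (2.48%) were already at least 2-fold lower, against 310 (0.624%). In the opposite direction, 64 of the falls (1.69%) were at least 2-fold higher with Al at 6 h, near the 1.79% of all probe sets tested. Of the rises, 9 (0.28%) were at least 2-fold lower.

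Among transcription factors, the WRKY, NAC, ERF and MYB lists were called mainly higher in the second step, and the bHLH and zinc finger lists were not. Over all probe sets tested, 6.47% rose and 7.62% fell in that step, and each list count below is to be read beside these shares. Of 114 WRKY probe sets tested, 43 rose (37.7%) and 4 fell (3.51%) with a median of 0.62, where all probe sets tested had a median of −0.02. WRKY55-like LOC100786198 rose by 4.59 ± 0.27 (limma, adjusted p = 2.48e-05), WRKY6-like LOC100804246 by 3.75 ± 0.20 (adjusted p = 1.73e-05), WRKY28-like LOC100816891 by 3.71 ± 0.31 (adjusted p = 0.000167) and WRKY12 by 3.45 ± 0.40 (adjusted p = 0.000934). LOC100786198 shows the course behind these values, at 1.14, 1.14 and 5.98 in GF and 1.14, 2.38 and 6.72 in KF with Al and 0.89 to 1.31 in the controls.

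Of 84 NAC probe sets, 37 rose (44.0%) and 2 fell (2.38%), with a median of 0.73. NAC4 rose by 3.28 ± 0.41 (limma, adjusted p = 0.00135) and NAC90-like LOC100777948 by 3.24 ± 0.19 (adjusted p = 2.45e-05). NAC4 had been lower at 12 h than at 6 h in both varieties, at 3.66, 2.78 and 5.16 in GF and 5.13, 3.34 and 7.52 in KF, so part of its rise returned it to its start. LOC100777948 had no such dip, at 2.0, 2.63 and 5.87 in GF and 3.37, 4.21 and 7.46 in KF. In the controls the median step of the WRKY list was −0.05 and that of the NAC list 0.05, with no call in either.

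The ERF and DREB list, of factors that act in ethylene and drought responses, had 36 rises and 9 falls among 208, led by ERF13-like LOC100806359 (4.02 ± 0.35, limma, adjusted p = 0.000225). Of 145 MYB probe sets, 26 rose and 8 fell, led by MYB125 (LOC778093), at 1.20, 1.18 and 5.69 in GF and 1.41, 1.46 and 7.11 in KF with Al and 1.22 to 1.47 in the controls (5.08 ± 0.28, adjusted p = 1.9e-05). The bHLH list had 14 rises (8.97%) and 16 falls (10.3%) among 156, not far above the shares over all probe sets tested. The zinc finger list had 38 rises (13.0%) and 32 falls (10.9%) among 293 (median −0.03). Of the 194 heat shock and chaperone probe sets, heat stress factors among them, 25 rose and 7 fell. HSF-06 rose by 3.21 ± 0.28 (adjusted p = 0.000225) and HSF-36 by 2.71 ± 0.33 (adjusted p = 0.00124), both annotated as class B-3-like. Class B-4-like LOC100776060, whose Arabidopsis relative SCHIZORIZA acts in root stem cell divisions, went the other way, at 4.24, 5.49 and 2.43 in GF and 5.03, 5.19 and 2.20 in KF, and fell by 3.02 ± 0.30 (adjusted p = 0.000451).

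**Figure D3:**
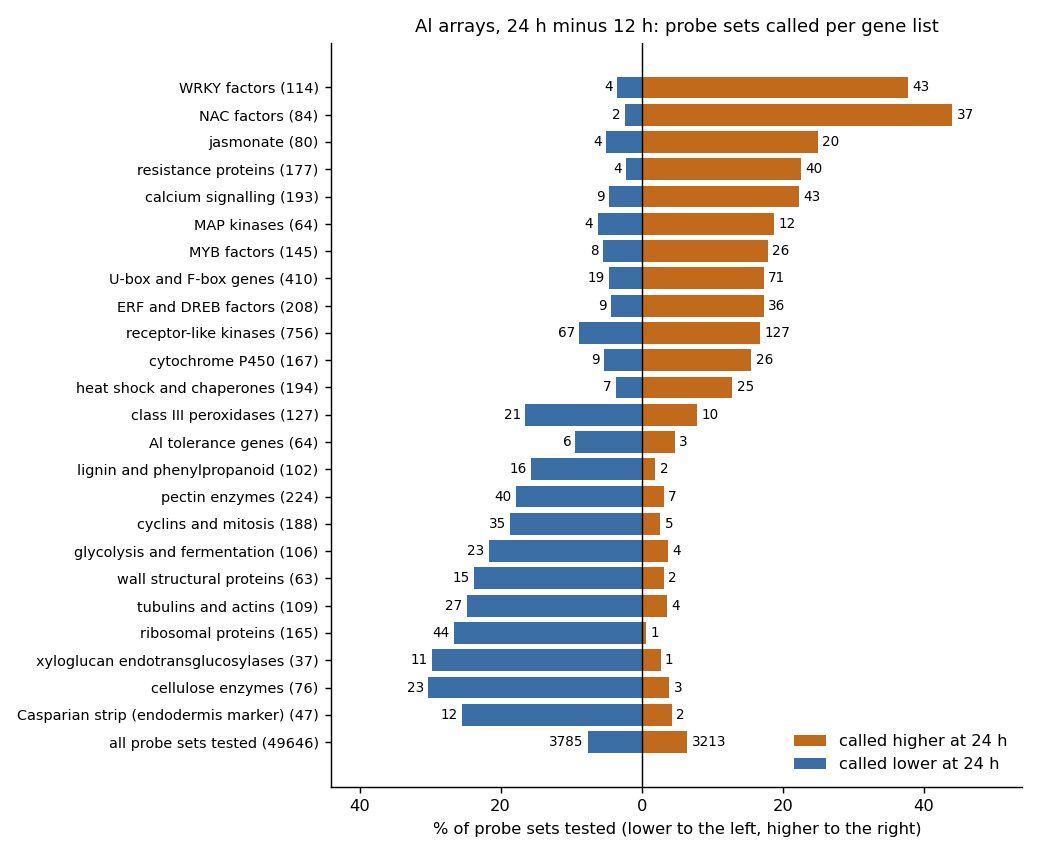
Share of the probe sets of each gene list that were called in the 12 to 24 h step of the Al arrays, higher at 24 h to the right and lower at 24 h to the left, with the number called beside each bar and the number tested in parentheses; the bottom row holds all 49646 probe sets. The WRKY and NAC lists reach furthest to the right, with 43 and 37 called, and the ribosomal protein, cellulose and xyloglucan lists are called mostly lower.

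Resistance proteins, receptor-like kinases and calcium signalling genes were called more often higher than lower. The list of chitinases and pathogenesis-related proteins had 13 rises (8.18%) and 22 falls (13.8%) among 159. Of 177 disease resistance probe sets, which encode receptors of pathogen effectors, 40 rose and 4 fell. Resistance protein At5g66900-like LOC100808032 had levels of 1.40, 2.30 and 7.62 in GF and 1.69, 5.27 and 8.82 in KF and rose by 4.43 ± 0.49 (limma, adjusted p = 0.000787), and its relative LOC100802182 rose by 4.51 ± 0.42 (adjusted p = 0.000293). LOC100808032 was among the split movers, since its larger step came at a different time in GF and in KF. Of 756 receptor-like kinases, which sense signals at the plasma membrane, 127 rose and 67 fell, led by ANXUR2-like LOC100781132 (4.60 ± 0.22, adjusted p = 1.04e-05).

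Of 193 calcium signalling probe sets 43 rose and 9 fell. Of the genes named from it, 2 are pumps that remove calcium from the cytosol, the endoplasmic reticulum type LOC100800498 at 1.49, 1.96 and 5.69 in GF and 2.40, 2.83 and 6.34 in KF with a rise of 3.62 ± 0.19 (limma, adjusted p = 1.43e-05) and the plasma membrane type LOC100792691 at 2.79, 3.80 and 6.89 in GF and 3.47, 3.93 and 7.09 in KF with a rise of 3.13 ± 0.24 (adjusted p = 9.63e-05). The oxidase RBOH B-like LOC100820185, of the family that makes superoxide for signalling, rose by 2.61 ± 0.18 (adjusted p = 6.21e-05). It belongs to a list of 116 enzymes of reactive oxygen, of which 12 rose (10.3%) and 12 fell (10.3%).

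Hormone genes differed by pathway. Of 80 jasmonate probe sets 20 rose and 4 fell. Lipoxygenase 13S LOC100800065, of the first step of jasmonate synthesis, was at 1.58, 1.35 and 5.32 in GF and 2.07, 2.46 and 6.30 in KF and rose by 3.91 ± 0.24 (limma, adjusted p = 3.04e-05). The reductase OPR11-like LOC100816003, related to a later enzyme of that path, rose by 4.28 ± 0.29 (adjusted p = 5.18e-05). TIFY10B-like LOC100800709, of the family of repressors that jasmonate induces, rose by 4.16 ± 0.19 (adjusted p = 8.32e-06).

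For abscisic acid and dehydration 18 of 150 rose and 4 fell, including NCED1 (LOC100814399), the limiting enzyme of abscisic acid synthesis, at 2.61, 2.52 and 5.64 in GF and 3.20, 3.01 and 4.92 in KF with a rise of 2.51 ± 0.30 (limma, adjusted p = 0.00113). The ethylene list was balanced, with 6 rises (10.9%) and 5 falls (9.09%) among 55, not far above the shares over all probe sets tested. It held ACC oxidases in both directions. LOC100816546 rose by 3.0 ± 0.30 (adjusted p = 0.000476) and LOC100784459 fell by 3.17 ± 0.72 (adjusted p = 0.0209). Of 172 auxin response genes 8 rose (4.65%) and 17 fell (9.88%), near the shares over all probe sets tested (6.47% and 7.62%), and of 37 auxin transporters and SAUR genes 1 rose (2.7%) and 7 fell (18.9%). The carriers LAX3 and LAX4, which take auxin into cells, both fell, LAX3 with a step of −2.01 ± 0.51 (adjusted p = 0.0323) and LAX4 with a step of −1.69 ± 0.29 (adjusted p = 0.00698). LAX3 lost its call after cyclic loess normalization, without the variety block, with the Al arrays fitted alone and without any 1 of 8 arrays, and LAX4, like the ACC oxidase LOC100784459, lost it without the KF 12 h Al array. Higher at 24 h was GH3, an enzyme that couples auxin to amino acids and so inactivates it, which rose by 4.75 ± 0.31 (adjusted p = 4.42e-05).

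Transport and detoxification genes rose in part. Of 139 ABC transporters 19 rose and 4 fell. B family member 11-like LOC100776122 was at 3.09, 3.73 and 8.03 in GF and 4.60, 5.29 and 9.06 in KF with Al and 2.02 to 2.31 in the controls and rose by 4.03 ± 0.23 (limma, adjusted p = 2.38e-05), and C family member 3-like LOC100777836, of a family that moves conjugates into the vacuole, rose by 3.97 ± 0.15 (adjusted p = 5.15e-06). Of 167 cytochrome P450 probe sets 26 rose and 9 fell, and of 410 U-box and F-box probe sets 71 rose and 19 fell. Of 44 glutathione S-transferases 7 rose (15.9%) and 2 fell (4.55%), and metal genes had 1 rise (1.47%) and 9 falls (13.2%) among 68. The metal genes included the iron store ferritin (LOC547698), at 4.82, 5.14 and 3.86 in GF and 4.40, 4.88 and 2.85 in KF, which fell by 1.65 ± 0.25 (adjusted p = 0.00371).

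Among annotated genes above background at 12 h, the largest falls of the second step were of the Casparian strip, the lignified band that seals the endodermis, the cell layer around the root's vascular tissue. Casparian strip membrane protein 2 (LOC100500661, chromosome 2, 41568456 to 41570435) had levels of 5.74, 6.09 and 2.61 in GF and 3.49, 6.28 and 1.62 in KF with Al at 6, 12 and 24 h, against 4.79 to 5.74 in the controls. It was lower in both 24 h Al arrays than in any other array and fell by 4.07 ± 0.49 (limma, adjusted p = 0.00121). Casparian strip membrane protein 5-like LOC100816461 (chromosome 19, 29978080 to 29980772) was at 5.72, 6.47 and 3.48 in GF and 4.47, 7.04 and 2.04 in KF with Al and 4.59 to 6.24 in the controls, and fell by 3.99 ± 0.55 (adjusted p = 0.00225).

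Both genes were higher at 12 h than at 6 h in both varieties with Al, so the second step started from a raised level. The differences from the control step were −4.21 ± 0.70 (limma, adjusted p = 0.0145) for membrane protein 2 and −4.83 ± 0.78 (adjusted p = 0.0129) for membrane protein 5-like. In the direct comparison of 24 h with 6 h the changes were −2.5 ± 0.49 (adjusted p = 0.0077) and −2.34 ± 0.55 (adjusted p = 0.0158). Both lost the call for the difference without any 1 of the 4 control arrays of 12 and 24 h, and membrane protein 2 also without the variety block. The 24 h against 6 h call was lost without the GF 6 h Al array in both genes, and in membrane protein 5-like also without the KF 6 h or the KF 24 h Al array.

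Of the 9 Casparian strip membrane protein genes tested, 6 were called lower in the second step, none in the first, and 4 had a step called lower than that of the controls. Of all probe sets tested, 7.62% were called lower in the second step and 0.836% in that difference. Higher levels at 12 h than at 6 h in both varieties were seen in 5 of the 9. Adjacent copies on chromosome 2 and on chromosome 10 belong to this set, so the 9 genes are not independent in sequence. The related CASP-like genes LOC100527420, at 2.77, 6.01 and 2.34 in GF and 3.85, 6.25 and 2.05 in KF, and LOC100500346, at 5.35, 5.73 and 2.48 in GF and 5.45, 5.37 and 1.65 in KF, fell, with steps of −3.94 ± 0.49 (limma, adjusted p = 0.00137) and −3.49 ± 0.38 (adjusted p = 0.000717). SCARECROW-like LOC100775656, whose Arabidopsis relative specifies the endodermis, was at 1.92, 3.36 and 1.43 in GF and 1.49, 3.52 and 1.28 in KF and fell by 2.08 ± 0.25 (adjusted p = 0.00119). All of these levels lay below the background percentile. The list of root cap and meristem markers, found by names such as SCARECROW, SHORT-ROOT and PLETHORA, had 0 rises and 1 fall (3.33%) among 30 in the second step.

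**Figure D4:**
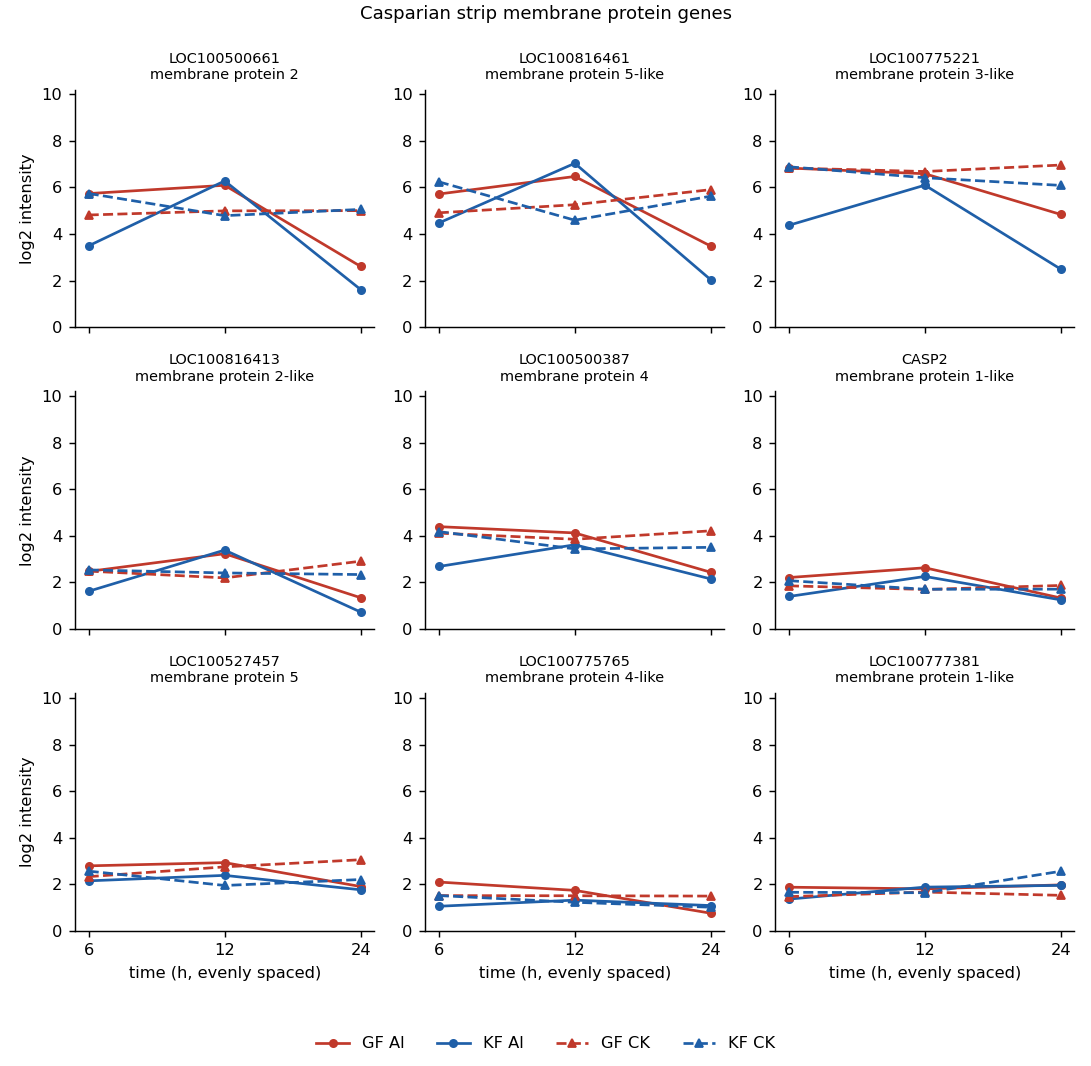
Log2 intensity at 6, 12 and 24 h, evenly spaced, of the 9 Casparian strip membrane protein genes in Al arrays (solid lines) and control arrays (dashed lines) of GF (red) and KF (blue), 1 array per point. In LOC100500661, LOC100816461 and LOC100775221 the 24 h Al points lie below all control points, and in LOC100777381 they do not.

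For the whole Casparian and CASP list, 12 of 47 fell (25.5%) and 2 rose (4.26%), and 13 of the 47 exceeded background in any Al array. The list was taken as a marker of the endodermis, but only 9 of its members are the Casparian strip membrane protein genes. Whether the others mark that layer in these roots was not tested. Its summed intensity, on the log2 scale, was 9.30 and 9.81 in the 24 h Al arrays, 10.47 to 10.63 at 12 h, 10.05 to 10.37 at 6 h and 9.86 to 10.27 in the controls. The 4 root hair markers summed to 7.01 and 7.33 at 24 h, 7.55 at 12 h and 7.93 to 7.99 at 6 h with Al, against 7.68 to 8.01 in the controls. None of the 4 was called in either step, and 3 of them were called lower for 24 h against 6 h. Whether fewer endodermal cells have a part in these falls was not tested.

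Cell wall genes were called mainly lower in the second step, in which 7.62% of all probe sets tested fell and 6.47% rose. Of 76 cellulose probe sets 23 fell (30.3%) and 3 rose (3.95%), with a median of −0.38. The cellulose synthase subunit CesA3-like LOC100814262 (GLYMA09G15620, chromosome 9, 18436444 to 18443761), of the complex that spins primary wall cellulose, was at 6.50, 5.01 and 2.56 in GF and 6.0, 5.50 and 2.76 in KF with Al and 5.73 to 6.97 in the controls. It was lower at 12 h than at 6 h in both varieties, a step that was not called, and it fell by 2.60 ± 0.26 in the second step (limma, adjusted p = 0.000454). COBRA-like LOC100785813, of a family that orients cellulose deposition, fell by 2.63 ± 0.52 (adjusted p = 0.0118).

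Of 37 xyloglucan endotransglucosylases, which cut and rejoin wall glucans, 11 fell and 1 rose, and LOC100785982 fell by 3.22 ± 0.50 (limma, adjusted p = 0.00387). Pectin enzymes had 40 falls and 7 rises among 224, lignin and phenylpropanoid genes 16 falls and 2 rises among 102, and structural wall proteins 15 falls and 2 rises among 63. The arabinogalactan protein 17-like LOC100808347 was at 7.57, 6.18 and 4.28 in GF and 7.33, 6.04 and 3.55 in KF and fell by 2.20 ± 0.22 (adjusted p = 0.000471). Fasciclin-like arabinogalactan protein 2-like LOC100805178 was at 8.39, 6.85 and 5.22 in GF and 7.74, 6.47 and 3.0 in KF and fell by 2.55 ± 0.38 (adjusted p = 0.00348).

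Expansins were divided, with 5 rises (9.8%) and 4 falls (7.84%) among 51, near the shares over all probe sets tested. The expansin-A15-like gene LOC100776066 fell by 2.87 ± 0.26 (limma, adjusted p = 0.000246), while the expansin-like B1-like gene named above rose. Auxin-induced 5NG4-like LOC100804233, at 7.43, 6.96 and 3.20 in GF and 6.16, 5.32 and 2.31 in KF with Al and 5.23 to 7.22 in the controls, leads the late falls and dropped by 3.38 ± 0.35 (adjusted p = 0.000509).

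Genes of cell division and ribosomal proteins were also called mainly lower, while of 171 probe sets of translation and ribosome biogenesis 2 rose and 8 fell (4.68%), a smaller share than over all probe sets tested. Of 188 cyclin and mitosis probe sets 35 fell and 5 rose. The mitotic cyclin CYCB1;3, at 6.96, 7.51 and 5.18 in GF and 7.14, 6.78 and 4.16 in KF with Al and 7.77 to 8.29 in the controls, fell by 2.48 ± 0.31 (limma, adjusted p = 0.00145). CYCB1;1 fell by 2.62 ± 0.39 (adjusted p = 0.00332). Of 74 histone and DNA replication probe sets 11 fell and none rose, and histone H2A-like LOC100783903 fell by 2.26 ± 0.25 (adjusted p = 0.000829). The helicase subunit mcm2-like LOC100813006 fell by 2.10 ± 0.36 (adjusted p = 0.00682).

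Of 109 tubulin and actin probe sets 27 fell and 4 rose, and the actin filament protein ADF5-like LOC100793035 fell by 2.38 ± 0.30 (limma, adjusted p = 0.00145), on a probe set that can bind several genes. Of 165 ribosomal protein probe sets 44 fell and 1 rose, with a median of −0.49 against a control median of −0.20 for the same step. Ribosomal protein L3-like LOC100792174 was at 3.24, 3.65 and 1.01 in GF and 3.60, 2.60 and 0.96 in KF with Al, against 4.98, 4.97 and 3.76 in GF and 5.23, 5.32 and 4.19 in KF controls. It fell by 2.14 ± 0.31 with Al (adjusted p = 0.00296), and its difference from the control step, −0.96 ± 0.44, was not called (adjusted p = 0.301).

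Of 106 glycolysis and fermentation probe sets 23 fell and 4 rose. The pyruvate decarboxylase LOC100787315, which opens the fermentation path, was at 5.27, 5.48 and 3.48 in GF and 4.51, 6.11 and 1.86 in KF and fell by 3.12 ± 0.45 (limma, adjusted p = 0.00289). ADH2 was at 6.37, 7.54 and 5.68 in GF and 4.48, 7.60 and 3.41 in KF and fell by 3.03 ± 0.48 (adjusted p = 0.00447). Neither differed from the control step by the test, at −2.08 ± 0.64 (adjusted p = 0.126) and −2.11 ± 0.68 (adjusted p = 0.146). The falls rest partly on 1 array, since without the KF 12 h Al array the calls lower were 8 for cyclins, 4 for ribosomal proteins, 2 for tubulins and actins, 2 for cellulose and 2 for glycolysis. Of the genes named above, COBRA-like LOC100785813, LOC100785982, LOC100805178, CYCB1;1, LOC100813006 and ferritin (LOC547698) lost their calls without that array, and LOC100793035 lost its call without the variety block.

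Class III peroxidases, the enzymes the study's title names, went both ways. In the second step 7.87% rose and 16.5% fell, against 6.47% and 7.62% of all probe sets tested. Of the 127 tested, 44 exceeded background in any Al array, 10 rose and 21 fell in the second step, and without the KF 12 h Al array 10 rose and 5 fell. Beside the anionic peroxidase named above, cationic peroxidase 1-like LOC100818176 was at 0.92, 0.60 and 4.37 in GF and 1.09, 0.88 and 4.89 in KF and rose by 3.89 ± 0.13 (limma, adjusted p = 2.76e-06). Peroxidase 52-like LOC100790279 dipped at 12 h in both varieties, at 4.57, 2.35 and 7.73 in GF and 5.78, 5.22 and 7.87 in KF, and rose by 4.01 ± 0.50 (adjusted p = 0.00145).

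The largest fall among the peroxidases was that of peroxidase 10-like LOC100805712, which peaked at 12 h. Its levels were 2.96, 5.32 and 1.04 in GF and 2.08, 4.40 and 0.45 in KF with Al and 2.97 to 4.48 in the controls, and it fell by 4.12 ± 0.38 (limma, adjusted p = 0.00027). The other called genes annotated as peroxidase 10-like had the same shape, with LOC100815708 at 1.43, 3.19 and 1.41 in GF and 1.43, 3.18 and 0.95 in KF, LOC100812961 at 1.12, 1.77 and 0.98 in GF and 1.32, 2.34 and 1.03 in KF and LOC100805171 at 1.15, 2.41 and 0.92 in GF and 0.97, 1.30 and 1.02 in KF. In all 4 genes the 12 h array was the highest of the 3 Al arrays of its variety. They were named because they were called lower in the second step, so a 24 h level below that of 12 h follows from the choice. The levels of LOC100815708, LOC100812961 and LOC100805171 all lay below the background percentile. Peroxidase 5-like LOC100779031, at 7.52, 7.47 and 5.38 in GF and 6.13, 6.90 and 1.41 in KF, fell by 3.79 ± 0.66 (adjusted p = 0.00684), with a larger difference in KF than in GF, and lost its call without the KF 12 h Al array and without the variety block.

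Genes of the families known from work on Al tolerance were called in shares near those of all probe sets tested. Of the 64 tested, 12 exceeded background in any Al array, 3 rose (4.69%) and 6 fell (9.38%) in the second step, against 6.47% and 7.62%, none was called in the first, and the median was −0.06. After cyclic loess normalization 4 rose and 2 fell. STOP1-like LOC100804910, whose Arabidopsis relative is the zinc finger factor that switches on Al tolerance genes, was at 5.76, 6.25 and 4.68 in GF and 5.43, 6.19 and 4.07 in KF with Al and 3.29 to 4.42 in the controls. It was lowest at 24 h in both varieties and fell by 1.84 ± 0.22 (limma, adjusted p = 0.00119), and its step differed from that of the controls by −1.56 ± 0.31 (adjusted p = 0.0325). The call for the fall held in every alternative fit of it, and the call for the difference was lost without any 1 of 11 arrays and without the variety block.

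Both tested genes like ALS3, a membrane protein needed for Al tolerance in Arabidopsis, fell as well. LOC100814304 was at 6.74, 6.82 and 5.29 in GF and 6.74, 6.67 and 4.71 in KF and fell by 1.75 ± 0.22 (limma, adjusted p = 0.00149), and LOC100802735 was at 8.56, 8.87 and 7.82 in GF and 8.07, 8.41 and 6.49 in KF and fell by 1.49 ± 0.30 (adjusted p = 0.0134), a call lost after cyclic loess normalization, without the variety block and without the KF 12 h or the KF 24 h Al array. The citrate transporter gene MATE had levels of 5.01, 6.08 and 5.04 in GF and 5.39, 5.70 and 4.92 in KF with Al, against 4.16, 4.41 and 3.53 in GF and 3.91, 4.27 and 3.57 in KF controls. It fell by 0.91 ± 0.24 (adjusted p = 0.0354), which returned it to near its 6 h level and did not differ from the control step by the test (−0.12 ± 0.34, adjusted p = 0.906). The call for its fall was lost after cyclic loess normalization, with the Al arrays fitted alone and without any 1 of 10 arrays.

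FRD3-like LOC100792203, related to a citrate transporter of the xylem in Arabidopsis, was at 8.0, 8.48 and 7.62 in GF and 8.47, 8.80 and 7.08 in KF and fell by 1.29 ± 0.32 (limma, adjusted p = 0.0298), and the chloroplast MATE 4 gene LOC100778835 fell by 1.33 ± 0.35 (adjusted p = 0.0346). Both calls were lost after cyclic loess normalization, without the variety block, with the Al arrays fitted alone and without any 1 of 5 arrays. The 3 rises were of genes near background, the malate channel relative ALMT33 at 1.45, 1.76 and 2.75 in GF and 1.42, 1.81 and 2.46 in KF and the MATE genes LOC100813022 and LOC100811560, with steps of 0.82 (adjusted p = 0.0128), 0.77 (adjusted p = 0.0197) and 0.63 (adjusted p = 0.0238). All 3 lost the call without the GF 12 h or the KF 12 h Al array and with the Al arrays fitted alone, and the MATE genes also with values floored at the background median.

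The comparison with the control arrays asked how the steps with Al differ from steps over the same hours without it. For the second step 1639 probe sets (3.3%) were called for the difference, 1224 with a higher (2.47%) and 415 with a lower step with Al (0.836%), and 8642 had an unadjusted p below 0.05. The Al and control steps share no array. Beside the genes already named, the largest differences included beta-glucosidase 24-like LOC100802250, which splits sugars from plant compounds, at 4.94 ± 0.38 (limma, adjusted p = 0.000355). On the lower side was acid beta-fructofuranosidase-like LOC100798772, an invertase that splits sucrose, at 7.68, 7.05 and 5.65 in GF and 7.17, 7.17 and 3.53 in KF with Al and 6.14, 4.83 and 6.14 in GF and 6.76, 5.61 and 6.39 in KF controls. Its steps differed by −3.57 ± 0.62 (adjusted p = 0.0182), a call lost without the variety block and without any 1 of 5 arrays.

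In gene lists, the difference was called higher for 23 of 114 WRKY, 18 of 177 resistance, 18 of 193 calcium signalling, 13 of 84 NAC and 12 of 80 jasmonate probe sets, and called lower for none of these. It was called lower for 8 of 47 Casparian and CASP, 4 of 74 histone and replication, 3 of 188 cyclin and 1 of 165 ribosomal probe sets. Over all probe sets tested, 2.47% were called higher and 0.836% lower for this difference, and the ribosomal count is near that lower share. The medians of cyclins and ribosomal proteins in the same step were −0.33 and −0.49 with Al, against −0.27 and −0.20 in the controls.

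Circadian clock genes follow the time of day. Of the 12 probe sets on their list, found by words in the descriptions, 2 rose and 2 fell in the second step with Al. Whether each of the 12 follows the time of day was not tested. LCL1, a dawn-phased clock gene, dipped at 12 h and was highest at 24 h in all 4 series, at 5.43, 4.21 and 6.72 in GF and 5.48, 4.80 and 6.12 in KF with Al and 5.45, 3.75 and 6.91 in GF and 5.81, 4.58 and 7.30 in KF controls. It rose by 1.91 ± 0.29 with Al (limma, adjusted p = 0.00368), while the control step of 2.94 ± 0.29 was not called (adjusted p = 0.174) and the difference was not called either (−1.02 ± 0.41, adjusted p = 0.243). The control step was the larger one, and it missed the call because the adjustment within the control comparison is stricter. The response regulator APRR9-like LOC100784383 instead took opposite ways. It was at 5.53, 4.21 and 6.13 in GF and 5.33, 4.22 and 5.76 in KF with Al and at 6.09, 5.07 and 3.56 in GF and 5.51, 5.40 and 4.27 in KF controls, so at 24 h both Al arrays lay above both control arrays. It rose by 1.73 ± 0.30 with Al (adjusted p = 0.00698), against a control step of −1.32 ± 0.30 (adjusted p = 0.688), and the steps differed by 3.05 ± 0.43 (adjusted p = 0.00683).

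ELF4A, an evening gene, peaked at 12 h with Al, at 3.77, 5.12 and 3.79 in GF and 3.59, 4.70 and 3.68 in KF, and fell by 1.18 ± 0.21 (limma, adjusted p = 0.00772), with no call for the difference from the controls (−0.24 ± 0.30, adjusted p = 0.761). The regulator APRR2-like LOC100820385 fell by 1.24 ± 0.22 (adjusted p = 0.00758). The GIGANTEA-like gene E2 was at 7.61, 6.17 and 6.88 in GF and 7.37, 6.67 and 6.33 in KF with Al and showed no call in either step. The calls of LOC100784383, ELF4A and LOC100820385 with Al were lost without the GF 12 h or the KF 12 h Al array, and that of LOC100784383 for the difference without the 12 h control array of either variety. Over the 12 probe sets the median step was 0.13 with Al and −0.47 in the controls.

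**Figure D5:**
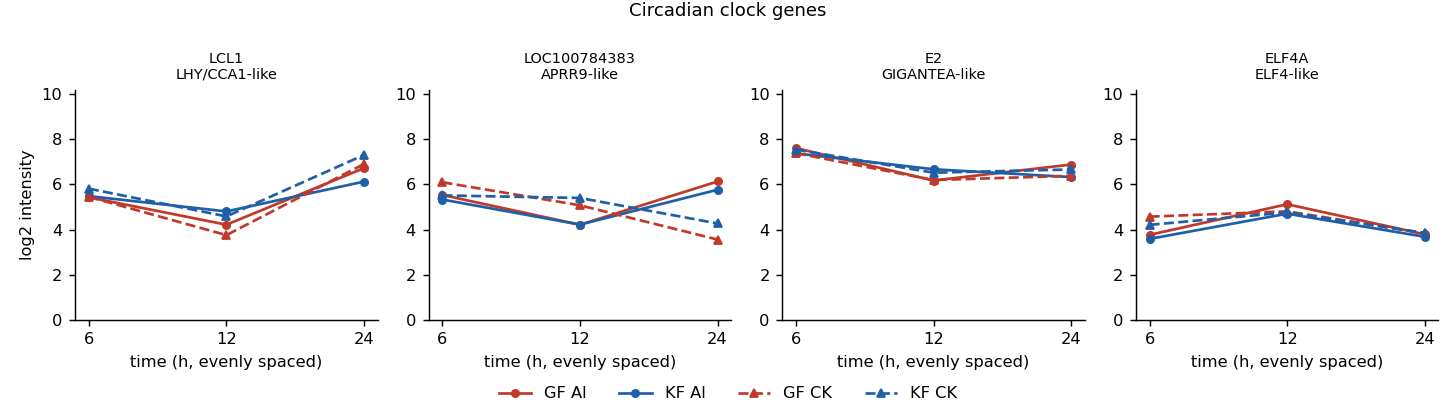
Log2 intensity at 6, 12 and 24 h, evenly spaced, of 4 circadian clock genes in Al arrays (solid lines, circles) and control arrays (dashed lines, triangles) of GF (red) and KF (blue), 1 array per point. LCL1 dips and ELF4A peaks at 12 h in all 4 series, while LOC100784383 is higher at 24 h than at 12 h with Al and lower in the controls.

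The size and balance of the second step moved with the fit. The number of calls was 1812 without the KF 12 h Al array and 9849 without the GF 24 h Al array, and after cyclic loess normalization 3795 probe sets were higher and 2446 lower, so that rises outnumbered falls.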

How the data were processed

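RNA of 12 root samples was hybridised to 1 Affymetrix soybean array each. The authors deposited 1 linear intensity per probe set and array, already summarised and normalized, per the values' near-equal medians, by a method not given in the sources used here. These deposited intensities were turned into log2 values, with no further normalization. A further 24 per-sample columns of the deposited table match no label and were not used. Of 75990 probe sets, 66195 are of the category main, of which 33493 carry 1 gene, 2040 several and 30662 none. Of those with 1 gene, 31963 were found in the RefSeq gene table, which updated 1285 symbols. Positions are those of the array annotation, whose transcripts cite assembly V1.0. The lowest 0.25 of main probe sets by mean log2 intensity (below 1.12) were left out, which leaves 49646.

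The test was limma 3.58.1 (R 4.3.3) with lmFit and eBayes (trend) over all 12 arrays, with 4 blocks of variety and treatment, 12 h and 24 h coefficients for each treatment and 4 residual degrees of freedom. It was tested on simulated data. Whether the arrays come from separate or pooled plants is not stated, so p-values measure only the spread between these arrays, and the number of arrays limits the precision. The named genes are the 10 largest called rises and falls of each comparison that carry 1 described gene, have the same sign in both varieties and lie above background at the higher end. Where fewer than 4 passed, the 6 largest 2-fold changes in both varieties are used instead and given as not passing. Added to these are the 8 largest of each sorted set and direction and up to 4 members of each gene list, and the clock, Al tolerance and peroxidase lists were taken whole. The 61 gene lists were found by words in the descriptions, and the members and lists were chosen with earlier results of these data known. The search words of the Casparian list were corrected after its values were seen. Alternatives changed the normalization, the filter, the background, the moderation, the block, the arrays in the fit and the fold.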

Additional observations from a re-analysis of the deposited data

Results flagged for a closer look

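The steps with Al and in the controls differed by the test in 2 probe sets from 6 to 12 h and in 1639 from 12 to 24 h. Among the genes described above, the uncharacterized LOC100500394 differed by 3.12 in the first step. In the second, the F-box gene LOC100799496 differed by 6.69, the elicitor-responsive LOC100802187 by 6.33, the beta-glucosidase LOC100802250 by 4.94 and the clock regulator LOC100784383 by 3.05, all with the higher step with Al. The lower steps with Al were those of the Casparian strip genes LOC100816461 (−4.83) and LOC100500661 (−4.21), the invertase LOC100798772 (−3.57) and STOP1-like LOC100804910 (−1.56). The calls of LOC100500394, LOC100784383, LOC100816461, LOC100500661, LOC100798772 and LOC100804910 were each lost without some single arrays. So was that of the unannotated chromosome 10 probe set, the other call of the first step.

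A few genes moved at least 2-fold in opposite directions in GF and KF from 12 to 24 h with Al, and for each of them the difference was not tested. Abscisic acid 8-hydroxylase 1-like LOC100807446, which breaks down abscisic acid, had levels of 5.17, 4.44 and 6.29 in GF and 5.44, 5.28 and 1.75 in KF, a step of 1.85 in GF and −3.53 in KF. Flavin-containing monooxygenase 1-like LOC100788404 was at 3.69, 3.34 and 6.14 in GF and 4.66, 6.81 and 4.08 in KF, a step of 2.79 in GF and −2.73 in KF. Chalcone synthase CHS2, which opens flavonoid synthesis, was at 7.97, 7.85 and 9.41 in GF and 8.66, 8.71 and 7.25 in KF, a step of 1.56 in GF and −1.46 in KF, and flavonoid 3-monooxygenase-like LOC100790480, of the same pathway, was at 6.27, 6.29 and 7.80 in GF and 7.31, 7.76 and 6.61 in KF, with 1.52 in GF and −1.15 in KF. The fatty acid ligase LOC100792142 had steps of 1.74 in GF and −2.09 in KF, and xyloglucan endotransglucosylase 22-like LOC100787440 went the other way, with −1.23 in GF and 1.09 in KF.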

How the results depend on the processing

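The first step's 39 calls became 64 after cyclic loess normalization, 205 with values floored at the background median, 21 without the trend, 9 without the variety block and 0 with the 6 Al arrays fitted alone, and leaving out 1 array gave 2 to 349. The second step's 6998 calls became 4071 without the variety block and 2523 with the Al arrays alone, and 1812 to 9849 with 1 array left out. The low values came without the KF 12 h Al array, the KF 24 h Al array (3514) and the GF 12 h Al array (3948). With the Al arrays alone 1470 were higher and 1053 lower, and LOC100784459 and LOC100785813 were among the named genes not called. With the lower 0.5 of probe sets left out 2845 were higher and 4249 lower. For 24 h minus 6 h the count was 6874 with the Al arrays alone and 3637 (without the KF 6 h Al array) to 13075 with 1 array left out, with 5893 without the KF 24 h Al array and 7596 without the GF 6 h Al array, and after cyclic loess 5701 were higher and 4204 lower.

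The difference between the Al and control steps gave 626 calls for the second step without the variety block, and 334 to 6228 with 1 array left out. The lowest came without the GF 12 h control array and the highest without the GF 24 h Al array, with 383 without the KF 12 h, 467 without the GF 24 h, 585 without the KF 24 h, 1064 without the GF 6 h and 1063 without the KF 6 h control array, and 685 without the KF 12 h Al array. For the first step it gave 1 call with the lower 0.5 of probe sets left out and 1 without the variety block, and 0 to 7 with 1 array left out. The control steps gave 0 calls from 6 to 12 h in every fit run, and from 12 to 24 h 1 call with floored values, 1 with the controls alone and 0 to 1 with 1 array left out.

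At 1.5-fold, the first step had 7708 movers in GF and 5849 in KF with Al, 2032 of them shared, against 4184 in GF and 3670 in KF controls, 655 shared. The second step had 10884 in GF and 15691 in KF with Al, 7326 shared, against 6941 in GF and 2637 in KF controls, 672 shared. Sorted movers numbered 10111 with Al, 950 early, 6136 late and 3025 split, against 1282, 391, 344 and 547 in the controls. The difference of the MATE gene from its control step turned to 0.14 without the GF 12 h Al array and was −0.38 without the KF 12 h Al array. Of the named genes, 57 of 78 calls in the second step and 0 of 15 in the first held in every alternative fit run for them, and 3 of 8 calls for the difference in the second step did. The fit of the Al arrays alone called nothing in the first step, so the 0 of 15 was fixed by that fit. LOC100500394 lost its call for the first step with Al in that fit only. The series value table holds the values already used, so that alternative was not run, and fits of 1 treatment give no difference between Al and control steps. Steps were taken within each variety, which is the only pairing the labels give, and they carry no replicate numbers. The number of arrays and levels near background limit what can be read from dim probe sets.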
